A study of Rattus norvegicus with 16 samples.

Results

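Expression of 10 genes of the Polycomb, H3K27 demethylase and histone deacetylase families was examined in purified Schwann cells and in whole sciatic nerve of the rat. The genes were Ezh2, Eed, Suz12, Kdm6a, Kdm6b, Hdac1, Hdac2, Hdac3, Hdac4 and Hdac7, taken by name as chromatin regulators known in Schwann cell repair. All 10 were found among the 31038 genes of the tables, and all 10 passed the filter on low counts in each fit. The RNA came from 16 libraries, 2 in each of 8 groups, namely Schwann cells and whole nerve that were uncrushed or were collected 3, 5 or 7 days after a sciatic nerve crush. Crush was made at postnatal day 18 without a sham operation in the controls, and the labels give postnatal day 18 as the age of all samples. If uncrushed nerves were taken on that day, age and crush cannot be told apart. The labels name no genetic change or drug in any group. The study describes isoflurane anaesthesia and the analgesic carprofen with the crush surgery. Controls had no sham operation, so these drugs and crush cannot be told apart. Each sample of purified cells pooled at least 10 nerves, and in crushed nerves only the segment distal to the injury was used. Schwann cells were obtained by immunopanning, in which a suspension of enzymatically dissociated nerve is depleted on CD45 and Thy1 antibodies and then selected on an O4 antibody. Whole nerve was not dissociated, so purity and dissociation cannot be told apart in these 16 libraries. The study also describes dissociated nerve, which was not analysed here.

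Polycomb repressive complex 2 (PRC2) places methyl groups on lysine 27 of histone H3, a mark of silenced genes. EZH2 is its catalytic subunit, EED binds the finished mark and stimulates the enzyme, and SUZ12 holds the complex together. KDM6A (UTX) and KDM6B (JMJD3) remove the mark. Class I histone deacetylases, here HDAC1, HDAC2 and HDAC3, remove acetyl groups from histones in corepressor complexes, whereas HDAC4 and HDAC7 are class IIa members that shuttle between cytoplasm and nucleus and repress MEF2 factors. In Schwann cells, PRC2 is known for holding injury genes silent in the myelinating cell, and HDAC1 and HDAC2 for roles in myelination and in the repair response.

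Depth lay between 10555067 and 27562637 expected counts per library, and a member had between 125 and 5131 counts in a library. Markers of other cells were lower in the purified samples, to unequal degrees. The summed FPKM (fragments normalized to transcript length and library size) of 8 macrophage markers was 2.97 to 14.5 in Schwann cells, highest in replicate 2 of day 3, and 127 to 589 in whole nerve. Fibroblast markers, 7 genes, summed to 1338 to 1599 FPKM in uncrushed Schwann cells, to 298 to 466 after crush and to 6333 to 8182 in whole nerve. For 8 endothelial and pericyte markers the sums were 7.45 to 52.2 and 286 to 436, and for 4 perineurial markers 58.0 to 119 and 152 to 283. In each of these last 3 lists 1 marker was called higher in uncrushed Schwann cells than in uncrushed nerve. Replicates were not duplicates of each other, and uncrushed Schwann cells differed most, with a chi-square of 30.0 per degree of freedom. Nothing in the labels says whether the 2 samples of a group came from separate litters or days, so p-values measure the spread between these samples.

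The record named Kdm6a needs a caution. Of its 4 transcripts, 2 are found in the RefSeq gene table of the assembly GRCr8, and both belong there to Uty, the homologous gene on chromosome Y. The table holds Kdm6a as another gene, on chromosome X, and no transcript of the record was matched to it. Values of this record are therefore given as those of the Kdm6a record. For 8 of the other 9 members the matched transcripts carried the same symbol, and the single Suz12 transcript was not listed. Hdac1 has a near-identical copy, Hdac1l, which was at 0 to 0.52 FPKM in every library.

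Per gene length, Hdac2 was the most abundant member in both tissues. Its mean FPKM was 106 over the 8 Schwann cell libraries and 92.2 over the 8 whole nerve libraries, at the 95.9th and 94.9th percentile of 16829 tested genes. In Schwann cells Ezh2 followed at 53.3, then Hdac1 at 25.7, Eed at 24.7, Suz12 at 19.3, Kdm6b at 19.2, Hdac4 at 12.6, the Kdm6a record at 12.3, Hdac3 at 8.68 and Hdac7 at 4.26. These means pool groups that differ, and the order changed between groups. Kdm6b came next after Ezh2 in uncrushed cells at a mean of 23.2, overlapping with Hdac1, and below the Kdm6a record at day 3 at 13.7, and Hdac4 went from 15.1 uncrushed to 7.04 at day 3, overlapping with Hdac3. In uncrushed whole nerve Eed stood above Ezh2, at 26.6 against 9.17, whereas at day 3 Ezh2 was above Eed, at 37.6 against 35.0, at day 5 they overlapped, and at day 7 Eed was again above Ezh2, at 34.4 against 24.6. Over the 8 whole nerve libraries Kdm6b and Hdac4 had means of 6.80 and 6.79. To compare groups, CPM values (counts scaled to library size) with TMM factors, the normalization of edgeR, are given below. The FPKM of uncrushed whole nerve runs lower on a common scale, and tests on FPKM moved the median of all genes by 0.377 to 0.406 on the log2 scale in whole nerve after crush versus uncrushed.

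**Figure D1:**
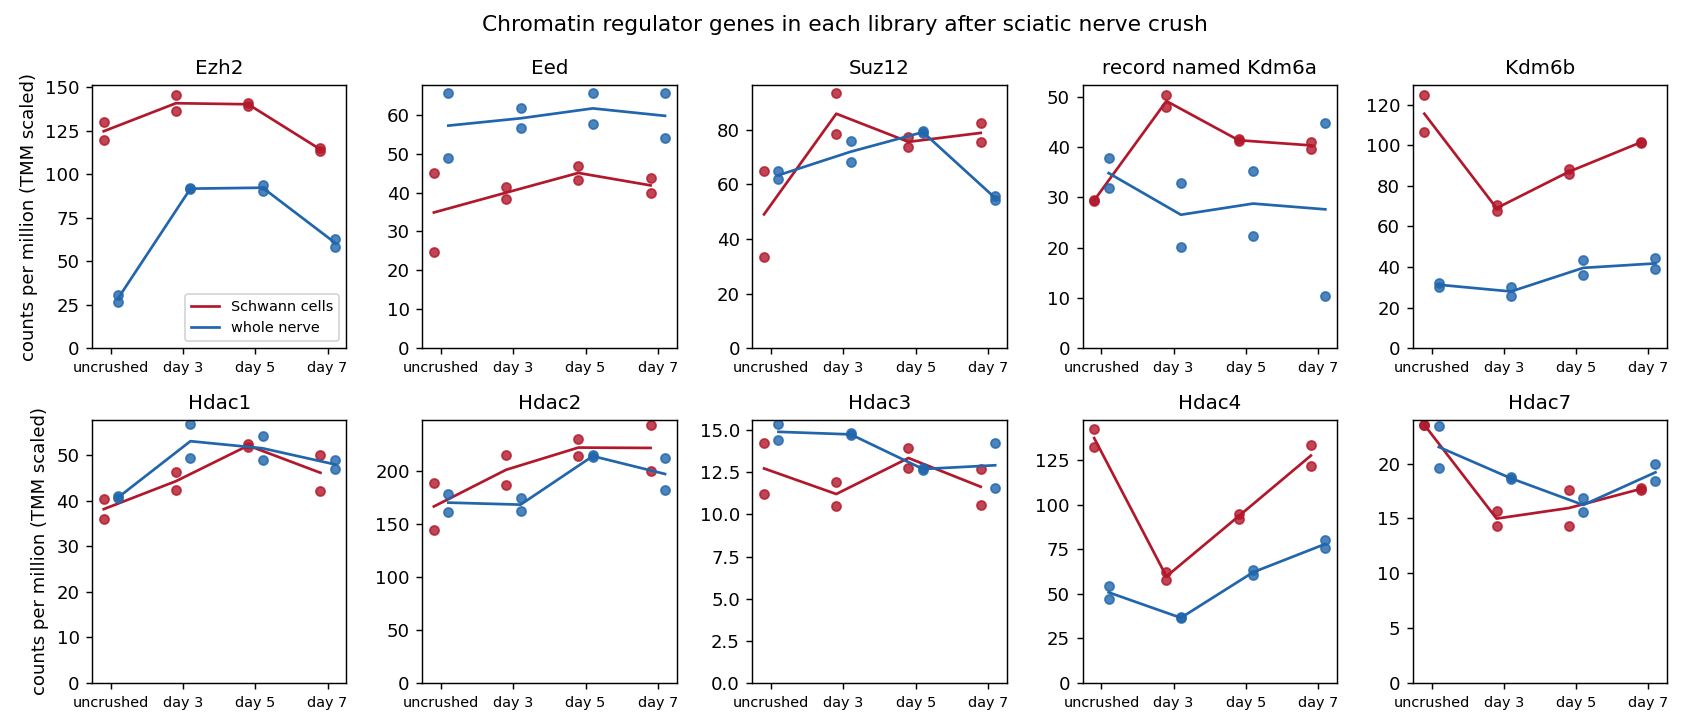
Each panel plots a gene, with TMM-scaled CPM on the y axis and the 4 time points on the x axis. Points are libraries, 2 per group, and lines join group means for Schwann cells (red) and whole nerve (blue). Ezh2 lies at 113 to 145 CPM in Schwann cells and rises from 26.7 and 30.7 in whole nerve, and Hdac4 and Kdm6b dip at day 3 in Schwann cells.

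Ezh2 was high in Schwann cells at every time and did not pass the test against uncrushed cells on any day, whereas in whole nerve it rose about 3-fold. Its CPM in the purified cells was 120 and 130 uncrushed, with 145 and 136, 141 and 139, and 115 and 113 on days 3, 5 and 7. In whole nerve it was 26.7 and 30.7 uncrushed, 92.0 and 91.5 at day 3, 90.4 and 94.1 on day 5, then 58.4 and 62.9 on day 7. Every Schwann cell library stood above every whole nerve library, and in whole nerve the uncrushed libraries were lowest. In Schwann cells the log2 fold changes against uncrushed were 0.21 ± 0.093 (SE) at day 3 (edgeR adjusted p = 0.0845), 0.20 at day 5 (0.102) and -0.10 at day 7 (0.388). The rise in whole nerve was 1.61 ± 0.0998 at day 3 (adjusted p = 5.99e-07), 1.59 at day 5 (9.01e-07) and 0.99 ± 0.101 at day 7 (4.05e-05). Ezh2 then fell from day 5 to day 7 by 0.60 in whole nerve (adjusted p = 0.00495, and 0.0517 without replicate 2 of day 5).

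The promoter window of Ezh2 in RefSeq (GRCr8, 250 bases before to 50 after the start the table uses) holds letters of the E2F type, the binding motif of factors that drive genes of the cell cycle. This start lies 11415 bases inside the outermost start of the gene record. The letters searched on both strands were TTCCCGC with its variants, which were TTGGCGC as in Ezh2, then also TTCGCGC and lastly the form TTGCCGC, and 3186 of 33469 windows (9.52%) hold at least 1 of them. Of the 9 members with a window, Ezh2 and Suz12 held a match, and the letters of a cyclic AMP response element (TGACGTCA) and of AP-1 (TGACTCA and its other form TGAGTCA) were in none of the 9 windows, against 1.83% and 4.63% of all windows. The stretches around the matches are shown with the motif in capitals, for Ezh2 on the minus strand of chr4:77687164-77687223 from base -40 to base 20 about the start, and for Suz12 on the plus strand of chr10:65464721-65464827 from base -248 to base -142.
Ezh2: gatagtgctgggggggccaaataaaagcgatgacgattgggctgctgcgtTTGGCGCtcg
Suz12: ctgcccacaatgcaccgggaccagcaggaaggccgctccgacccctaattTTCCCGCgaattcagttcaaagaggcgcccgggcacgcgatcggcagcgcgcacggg

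Genes of cell division were measured beside Ezh2, since it is known to rise in dividing cells. The summed FPKM of 31 such genes was 480 and 452 in uncrushed Schwann cells and 1125 and 1094 at day 3. In whole nerve it was 166 and 147 uncrushed and 1202 and 1275 at day 3. At day 3, 30 of 31 were higher in Schwann cells (median log2 fold change 1.33) and 31 of 31 in whole nerve (median 3.14), beside 26.9% and 23.1% of all genes and all-gene medians of 0.0034 and 0.0029. Uncrushed Schwann cells were higher than uncrushed whole nerve in 26 of 31, beside 29.1% of all genes. Macrophage markers also rose in whole nerve, from summed FPKM of 144 and 127 uncrushed to 559 and 589 at day 3, with 8 of 8 called higher at days 3 and 5, beside 23.1% and 18.9% of all genes. The part of either list in the level of Ezh2 was not tested.

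Suz12 was higher in Schwann cells on all 3 days, but its uncrushed libraries differed. Its CPM was 33.2 and 64.8 uncrushed, 93.4 and 78.3 at day 3, 73.7 and 77.4 on day 5, then 82.3 and 75.4 on day 7. All injured libraries lay above both uncrushed libraries, and replicate 1 of the uncrushed cells was the lowest of all 16 libraries. The log2 fold changes were 0.84 ± 0.243 (adjusted p = 0.0155), 0.65 ± 0.244 (0.0447) and 0.71 ± 0.244 (0.0366). Without the low uncrushed library they were 0.44, 0.25 and 0.31, with adjusted p of 0.0229, 0.147 and 0.0913. Leaving out replicate 1 of day 3 also ended the call of that day (0.69, adjusted p = 0.089). The calls of days 5 and 7 were lost as well without either library of that day, with adjusted p of 0.0775 to 0.134. In whole nerve Suz12 was at 64.8 and 61.9 CPM uncrushed, 68.1 and 75.8 at day 3, 78.7 and 79.5 on day 5, then 54.3 and 55.6 on day 7. Of 9 alternatives, 8 called Suz12 lower there at day 7 than at day 5, and 8 lower than at day 3. It fell from day 5 to day 7 by 0.52 ± 0.090 (adjusted p = 0.00807, and 0.0506 and 0.0651 without replicate 1 or 2 of day 5). It was also lower at day 7 than at day 3 (-0.41, adjusted p = 0.00907, and 0.101 without replicate 2 of day 3). The fall against uncrushed at day 7, -0.30 (adjusted p = 0.0317), passed in 2 of 9 alternatives and was lost without any 1 of the 4 libraries (0.0718 to 0.143).

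Eed did not pass the test after crush in either tissue, but this depended on single libraries and settings. In Schwann cells its log2 fold changes were 0.23, 0.40 and 0.29 at days 3, 5 and 7. Without uncrushed replicate 2 they were 0.69, 0.86 and 0.76 and passed (adjusted p = 0.00283, 0.000808 and 0.00206), and without uncrushed replicate 1 those of days 3 and 7 were below 0 (-0.14 and -0.08). The day 5 value also passed without a filter on low counts (0.41, adjusted p = 0.0148). In whole nerve Eed had -0.03 and 0.0034 at days 3 and 5, and limma on FPKM gave values up to 0.41 and 0.43 that passed. Its CPM was 24.8 and 44.9 in uncrushed Schwann cells and 38.5 to 47.0 after crush, and 48.8 to 65.7 over the 8 whole nerve libraries. The ranges of the 2 tissues did not overlap. Schwann cells versus whole nerve was nevertheless not called at day 5 (-0.45, edgeR adjusted p = 0.0788) or day 7 (-0.51, 0.0522). Uncrushed Schwann cells were lower than uncrushed whole nerve by a log2 difference of -0.72 (adjusted p = 0.00809), which became -0.36 (0.0916) when replicate 1 of the purified uncrushed cells was left out, and -0.49 (0.112) when replicate 1 of uncrushed whole nerve was. At day 3 the difference was -0.57 (adjusted p = 0.0284), and it failed without any 1 of the 4 libraries (adjusted p 0.0555 to 0.125).

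Ratios within a library do not depend on the scaling. Ezh2 over Eed was 3.13 and 1.95 in uncrushed Schwann cells and 1.76 to 2.40 after crush, whereas in whole nerve it was 0.280 and 0.430 uncrushed, 1.13 and 1.02 at day 3 and 0.632 and 0.815 at day 7. Ezh2 over Ezh1, the other catalytic subunit and one that persists in cells that no longer divide, was 8.86 and 10.7 in uncrushed Schwann cells and 18.8 and 16.2 at day 3. In whole nerve the same ratio was 1.81 and 1.66 uncrushed and 7.23 and 7.61 at day 3. The direction of the Ezh2 over Ezh1 ratio after crush was thus the same in both tissues. In Schwann cells Ezh1 fell at day 3 by 0.62 on the log2 scale, beside the 0.21 of Ezh2, with an adjusted p of 0.00348 for Ezh1, which went from 5.55 and 4.77 to 3.11 and 3.32 FPKM.

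**Figure D2:**
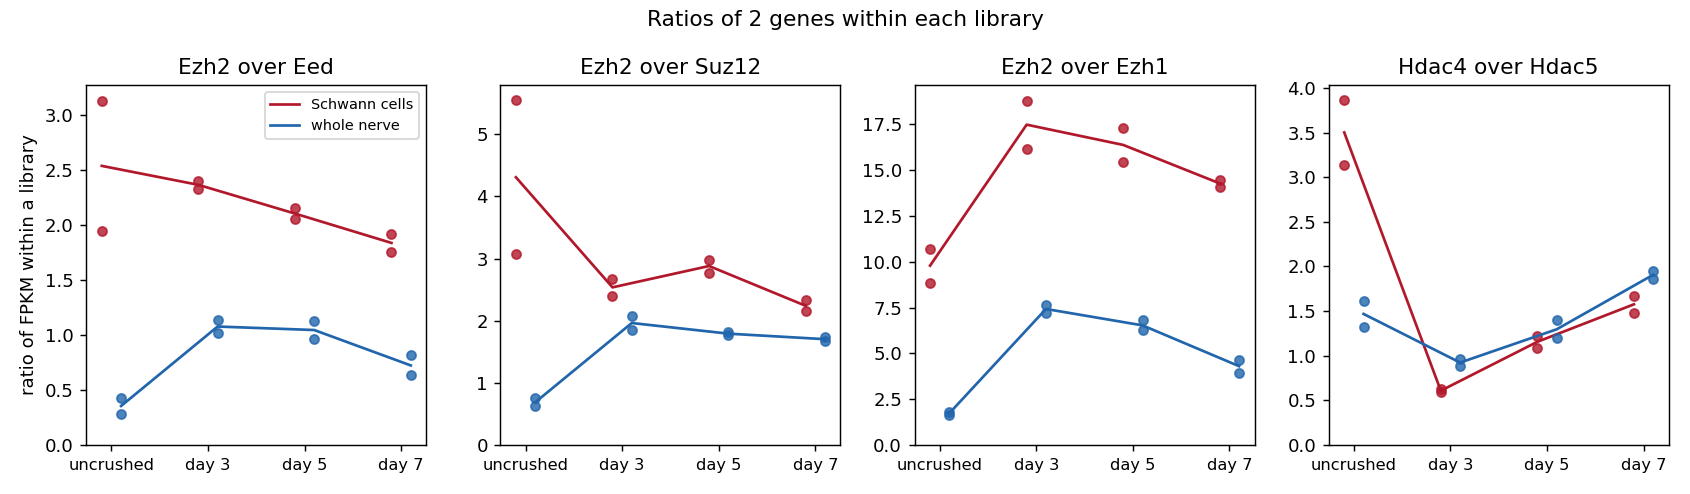
Each panel plots the ratio of the FPKM of 2 genes within a library (y axis) at the 4 time points (x axis). Points are libraries, 2 per group, and lines join group means for Schwann cells (red) and whole nerve (blue). Ezh2 over Ezh1 rises to 18.8 and 16.2 in Schwann cells at day 3, and Hdac4 over Hdac5 falls from 3.87 and 3.13 to 0.591 and 0.625.

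Of 10 genes listed as partners of PRC2, 8 were in the tables and tested. In Schwann cells 3 were higher and 3 lower at each of days 3, 5 and 7, beside 26.9%, 29.0% and 25.0% of all genes higher and 25.7%, 25.6% and 21.9% lower. Those higher were the histone binders Rbbp4 and Rbbp7 and the Polycomb-like gene Phf19, at log2 fold changes of 0.38, 0.63 and 0.95 at day 3. Those lower were Ezh1, Jarid2 and Aebp2, at -0.62, -0.39 and -0.46. Jarid2 and Aebp2 are accessory subunits that help bring PRC2 to chromatin. In whole nerve at day 3 Rbbp4, Rbbp7 and Phf19 were again higher (0.40, 0.73 and 1.36) and Ezh1 was lower (-0.47), and Jarid2 and Aebp2 had values of 0.0013 and -0.13. Mtf2 and Phf1, of the Polycomb-like genes, had -0.03 and 0.11 in Schwann cells at day 3 and were not called against uncrushed on any day in either tissue. The effect of crush on Jarid2 and Aebp2 differed between the tissues at day 3, by -0.50 and -0.44 (Schwann cells minus whole nerve, adjusted p = 0.0338 and 0.0341). Among 22 subunits of PRC1, the complex that reads the mark, 2 were higher and 6 lower at day 3 in Schwann cells, beside 26.9% and 25.7% of all genes. Those higher were Yaf2 (0.65) and Rnf2 (0.27), and of those lower Cbx7 (-1.23), which binds the mark, changed most.

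Kdm6b was highest in uncrushed Schwann cells, fell at day 3 and rose again from day 3 to day 7. Its CPM in Schwann cells was 106 and 125 uncrushed, 67.4 and 70.6 at day 3, 88.2 and 85.7 on day 5, then 102 and 101 on day 7. The injured libraries all lay below both uncrushed libraries, and no neighbouring days overlapped. The log2 fold change was -0.71 ± 0.105 at day 3 (adjusted p = 0.000368), -0.38 ± 0.105 at day 5 (0.0116, and 0.0755 without replicate 2 of day 5) and -0.16 at day 7, which was not called. From day 3 to day 7 it rose by 0.55 ± 0.105 (adjusted p = 0.0056, and 0.0501 without replicate 1 of day 3). In whole nerve Kdm6b had 32.2 and 30.2 CPM uncrushed, 30.3 and 25.5 at day 3, 35.8 and 43.3 on day 5, then 39.1 and 44.4 on day 7, and no day passed the test against uncrushed (0.24 at day 5 and 0.32 at day 7). In the fit of all 16 libraries these were 0.34 (adjusted p = 0.0467) and 0.42 (0.0225), and limma on FPKM gave up to 0.60 and 0.72, all past the threshold. It was higher at day 7 than at day 3 in whole nerve (0.56, adjusted p = 0.0134), but not without replicate 2 of day 3 (0.125) or replicate 2 of day 7 (0.0833). It was also higher at day 5 than at day 3 (0.48, adjusted p = 0.0423), a call that was lost without any 1 of the 4 libraries (0.0558 to 0.287).

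The Kdm6a record was higher in Schwann cells after crush, and its whole nerve libraries disagreed. In Schwann cells it had 29.5 and 29.4 CPM uncrushed, 50.4 and 48.0 at day 3, 41.2 and 41.6 on day 5, then 41.1 and 39.7 on day 7, with no overlap between injured and uncrushed. The log2 fold changes were 0.77 ± 0.0993 (adjusted p = 0.000137), 0.52 ± 0.0996 (0.00179) and 0.48 (0.00346). In the fit of all 16 libraries, which takes in the spread of whole nerve, these had adjusted p of 0.155, 0.345 and 0.406. In whole nerve the record had 37.9 and 31.9 CPM uncrushed, 20.2 and 32.9 at day 3, 22.3 and 35.3 on day 5, then 10.4 and 44.9 on day 7. Replicate 1 was the lower library on each day after crush. Genes that the RefSeq table places on chromosome Y also differed between these libraries. Kdm5d had 1.87 and 4.90 FPKM and Eif2s3y 22.8 and 53.7 FPKM in the 2 whole nerve libraries of day 7. In Schwann cells Kdm5d was at 4.64 to 7.01 FPKM in all 8 libraries, without the rise seen in the Kdm6a record, and Eif2s3y had 11.6 and 26.3 FPKM uncrushed and 39.0 to 74.6 after crush. The sex of the pooled animals is not given in the labels, and its part in these values was not tested.

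The class I deacetylases moved little. Hdac1 had 40.4 and 36.0 CPM in uncrushed Schwann cells and 51.8 and 52.5 at day 5, a log2 fold change of 0.47 ± 0.118 (adjusted p = 0.00728, and 0.0525 without replicate 2 of the uncrushed cells). In whole nerve it rose at day 3, from 40.5 and 41.0 to 56.8 and 49.4 CPM (0.31, adjusted p = 0.0304), a call lost without either uncrushed library or replicate 1 of day 3 (0.0812 to 0.208). Hdac2 had 145 and 189 CPM in uncrushed Schwann cells, 215 and 187 at day 3, 231 and 214 on day 5, then 244 and 200 on day 7. Its log2 fold change was 0.44 on days 5 and 7 (adjusted p = 0.0289 and 0.0348). Without replicate 1 of the uncrushed cells these were 0.26 and 0.26 (0.145 and 0.167). The day 5 call was also lost without either library of day 5 (0.125 and 0.0576), and that of day 7 without replicate 1 of day 7 (0.208). Hdac3 ranged from 10.5 to 15.4 CPM over all 16 libraries and was not called after crush in either tissue.

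Hdac4 showed the largest change of any member in Schwann cells. Its CPM was 142 and 132 uncrushed, 57.4 and 61.9 at day 3, 94.8 and 92.1 on day 5, then 133 and 122 on day 7. The day 3 libraries lay below those of every other Schwann cell group, and the libraries of day 7 overlapped with the uncrushed ones. Day 3 was lower than uncrushed by a log2 fold change of -1.17 ± 0.099 (adjusted p = 8.32e-06) and day 5 by -0.53 ± 0.097 (0.0014, with -0.30 and -0.32 and adjusted p of 0.0491 and 0.0502 in tests on FPKM), and at day 7 the value was -0.08. Between days Hdac4 rose by 0.64 from day 3 to day 5 (adjusted p = 0.00408) and by 1.08 from day 3 to day 7 (9.8e-05). In whole nerve it had 47.0 and 54.5 CPM uncrushed, 36.2 and 36.8 at day 3, 60.6 and 63.5 on day 5, then 75.7 and 80.0 on day 7. It was lower at day 3 (-0.54 ± 0.101, adjusted p = 0.00143), whereas tests on FPKM gave -0.11 and -0.13, which were not called. At day 7 it was above uncrushed by 0.53 ± 0.099 (adjusted p = 0.00249), and between days 3 and 7 it rose by 1.07, with day 5 above day 3 by 0.74 (adjusted p = 5.95e-05 and 0.00175).

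Hdac7 was called lower in Schwann cells on all 3 days, though at day 7 in only 4 of 9 alternatives. It had 23.5 CPM in each uncrushed library, 14.3 and 15.7 at day 3, 17.6 and 14.3 on day 5, then 17.6 and 17.8 on day 7, and all injured libraries lay below the uncrushed ones. The log2 fold changes were -0.61 ± 0.140 (adjusted p = 0.0047), -0.53 ± 0.140 (0.00954, and 0.0836 without replicate 2 of day 5) and -0.39 ± 0.140 (0.045). The call at day 7 was lost without any 1 of the 4 libraries (0.084 to 0.16). In whole nerve Hdac7 ranged from 15.6 to 23.4 CPM and was called at day 5 (-0.51, adjusted p = 0.0158), though not without replicate 1 of the uncrushed nerves (0.128), nor without replicate 1 (0.0511) or replicate 2 of day 5 (0.0991). Tests on FPKM gave -0.06 and -0.08 there, which were not called.

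Of the 6 other zinc-dependent deacetylase genes, 2 were higher and 2 lower at day 3 in Schwann cells, beside 26.9% and 25.7% of all genes. Hdac5, a class IIa gene like Hdac4, rose from 4.17 and 4.46 to 11.5 and 11.7 FPKM (1.48, adjusted p = 7.26e-06) and was called higher on days 5 and 7 too (1.24 and 1.21). Hdac9, also of class IIa, was higher at day 3 (1.14), with values of -0.07 and -0.18 at days 5 and 7 that did not pass. Hdac11 was lower at day 3 (-1.53) and Hdac8 lower on each day (-0.65 at day 3). The level of Hdac11 was low, with a mean of 1.535 FPKM uncrushed and 0.505 at day 3. Hdac6 and Hdac10 had -0.05 and 0.03 at day 3 and were not called against uncrushed on any day. The ratio of Hdac4 to Hdac5 in Schwann cells therefore went from 3.87 and 3.13 uncrushed to 0.591 and 0.625 at day 3 and to 1.67 and 1.48 at day 7. In whole nerve Hdac5 was not called on any day (0.12 at day 3), and the effect of crush on it differed between the tissues by 1.25 at day 3. Hdac11 fell in whole nerve by 3.63 on the log2 scale at day 3, and the effect of crush was smaller in Schwann cells by 2.00. Of 11 tested partners of HDAC4 and HDAC7, 8 were higher and 1 lower at day 3 in Schwann cells, beside 26.9% and 25.7% of all genes, and 5 were higher and 1 lower at each of days 5 and 7, beside 29.0% and 25.0% of all genes higher and 25.6% and 21.9% lower. The MEF2 factor Mef2c rose by 1.61, from 3.97 to 11.7 FPKM in the mean, and Prkd1, a kinase that phosphorylates these deacetylases and sends them out of the nucleus, fell from 11.04 to 3.745 FPKM in the mean.

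Other chromatin regulators at day 3 in Schwann cells are read against the same 26.9% of genes higher and 25.7% lower. Of 7 sirtuins, 1 was higher (Sirt6, 0.58) and 0 were lower. Of 26 corepressor subunits, 6 were higher and 2 lower, with Chd3 (1.05) and Sin3b (0.71) rising most and Ing1 (-0.89) and Gatad2b (-0.44) falling. Of 14 subunits of H3K4 methyltransferase complexes, 1 was higher (Dpy30, 0.96) and 3 were lower, Kmt2c and Pagr1 most (both -0.57). Of 10 histone acetyltransferase genes, 1 was higher (Hat1, 0.51) and 3 were lower, Kat6b (-0.91) and Kat2b (-0.79) most.

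Counted over the family, 5, 7 and 4 of 10 members were called in Schwann cells on days 3, 5 and 7, against 52.5%, 54.6% and 46.9% of all tested genes. In direction, 2, 4 and 3 were higher, beside 26.9%, 29.0% and 25.0% of all genes, and 3, 3 and 1 were lower, beside 25.7%, 25.6% and 21.9%. Their median log2 fold change was 0.22, 0.30 and 0.10. In whole nerve 3, 2 and 3 members were called, against 45.6%, 38.4% and 31.3% of all genes. There 2, 1 and 2 members were higher, beside 23.1%, 18.9% and 15.4%, and 1 member was lower on each day, beside 22.5%, 19.5% and 15.9%. The share of members called was above that of all genes in Schwann cells at day 5 and below it in the other comparisons with uncrushed. The members were not tested as a set. The record of Kdm6a makes up 3 of the 16 calls in Schwann cells.

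**Figure D3:**
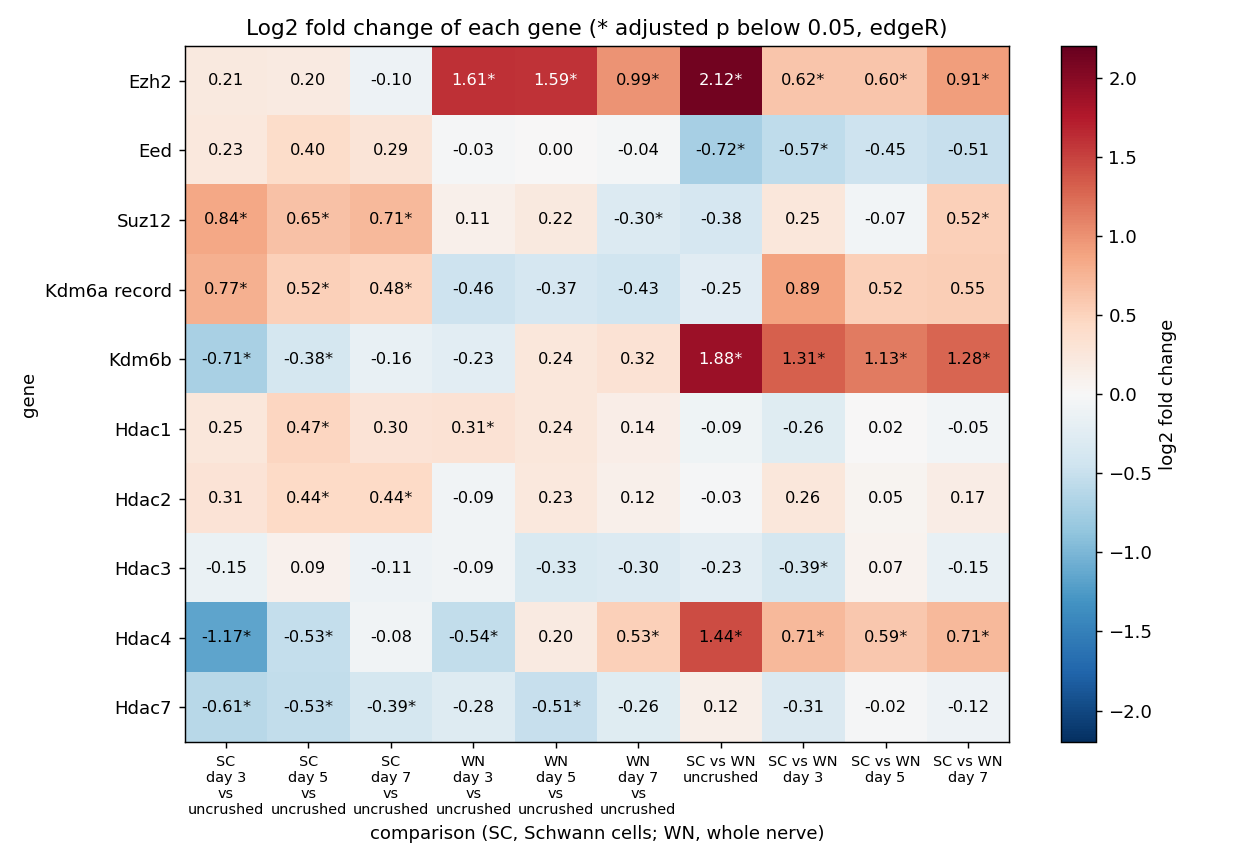
The grid gives the log2 fold change of each gene (rows) in each comparison with uncrushed tissue and between tissues (columns), with red for higher and blue for lower. An asterisk marks an adjusted p below 0.05 in edgeR, and Ezh2 stands out with 1.61 in whole nerve at day 3 against 0.21 in Schwann cells.

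Between days after crush, 4 calls were made in Schwann cells and 8 in whole nerve. In Schwann cells 1 was called between days 3 and 5, 0 between days 5 and 7 and 3 between days 3 and 7, beside 12.5%, 1.95% and 21.0% of all genes. Between days 5 and 7, 2 members had an unadjusted p below 0.05 in edgeR. These were Ezh2 and Hdac4 (0.44, adjusted p = 0.0533), and Hdac4 passed in 6 of 9 alternatives, DESeq2 among them (0.0129). Ezh2 was lower at day 7 than at day 3 in Schwann cells (-0.31, adjusted p = 0.0401), a call that was lost without any 1 of the 4 libraries (0.124 to 0.249). In whole nerve the numbers were 2, 2 and 4, beside 11.5%, 7.40% and 21.2% of all genes, made up of Ezh2, Suz12, Kdm6b and Hdac4 as given above. From day 3 to day 7 Ezh2 fell in whole nerve by 0.62 (adjusted p = 0.0012).

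Compared at the same time point, Ezh2, Kdm6b and Hdac4 exceeded whole nerve in the purified cells at all 4 times. Uncrushed, they differed by log2 fold changes of 2.12 ± 0.096 (adjusted p = 3.26e-10), 1.88 ± 0.125 (1.18e-08) and 1.44 ± 0.097 (1.46e-08). At day 3 the differences were 0.62, 1.31 and 0.71, at day 5 0.60, 1.13 and 0.59, and at day 7 0.91, 1.28 and 0.71, all called. Suz12 was higher in Schwann cells at day 7 (0.52, adjusted p = 0.0445), a call lost without any 1 of the 4 libraries (0.0769 to 0.169). Hdac3 was lower at day 3 (-0.39, adjusted p = 0.0443) and passed in 3 of 8 alternatives and in none of the 4 fits without 1 library (0.0649 to 0.216). The calls numbered 4, 5, 3 and 4 of 10 from uncrushed to day 7, against 64.4%, 57.3%, 51.7% and 51.0% of all genes. Those higher in Schwann cells were 3, 3, 3 and 4, beside 29.1%, 24.5%, 23.2% and 22.4%, and those lower were 1, 2, 0 and 0, beside 35.3%, 32.8%, 28.4% and 28.7%. In whole nerve, fewer Schwann cells and less RNA per Schwann cell cannot be told apart. The immediate early gene Fos, which responds to handling of cells, had 934 and 962 FPKM in uncrushed Schwann cells, 241 to 345 after crush and 2.03 to 14.0 in whole nerve. Fos and the summed fibroblast markers also differed between uncrushed and crushed Schwann cells. The part of dissociation or of purity in the differences between the tissues, or in the changes after crush, was not tested.

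The effect of crush on Ezh2, Kdm6b and Hdac4 differed between the tissues on each day. As a difference of log2 fold changes, Schwann cells minus whole nerve, Ezh2 had -1.51 ± 0.129 at day 3 (adjusted p = 1.29e-06), -1.52 ± 0.130 at day 5 and -1.21 ± 0.131 at day 7. The median of the 31 genes of cell division for the same difference was -1.56, -1.32 and -0.78, beside all-gene medians of -0.044, -0.037 and -0.072. The part of cell division in the Ezh2 difference was not tested. For Hdac4 the difference was -0.73 ± 0.135 (adjusted p = 0.00114), -0.85 ± 0.134 (0.000316) and -0.73 ± 0.134 (0.00114). For Kdm6b it was -0.58 ± 0.171 (0.0223), -0.75 ± 0.170 (0.00456) and -0.60 ± 0.171 (0.0179). The Kdm6b call at day 3 was lost without replicate 2 of the uncrushed Schwann cells (0.0733), replicate 1 of Schwann cells at day 3 (0.0698), replicate 1 (0.0505) or 2 (0.0842) of uncrushed whole nerve, or replicate 1 of whole nerve at day 3 (0.112). At day 7 it was lost without replicate 2 of the uncrushed Schwann cells (0.0588), of uncrushed whole nerve (0.0556) or of whole nerve at day 7 (0.0749). Suz12 differed at day 7 (0.90 ± 0.289, adjusted p = 0.0344), a call that held without 2 of the 8 libraries and was lost without each of the other 6 (0.0508 to 0.0951). Leaving out uncrushed Schwann cell replicate 1 gave 0.50, and leaving out replicate 2 gave 1.45. The calls were 3, 3 and 4 of 10, beside 26.0%, 27.5% and 26.0% of all genes.

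**Figure D4:**
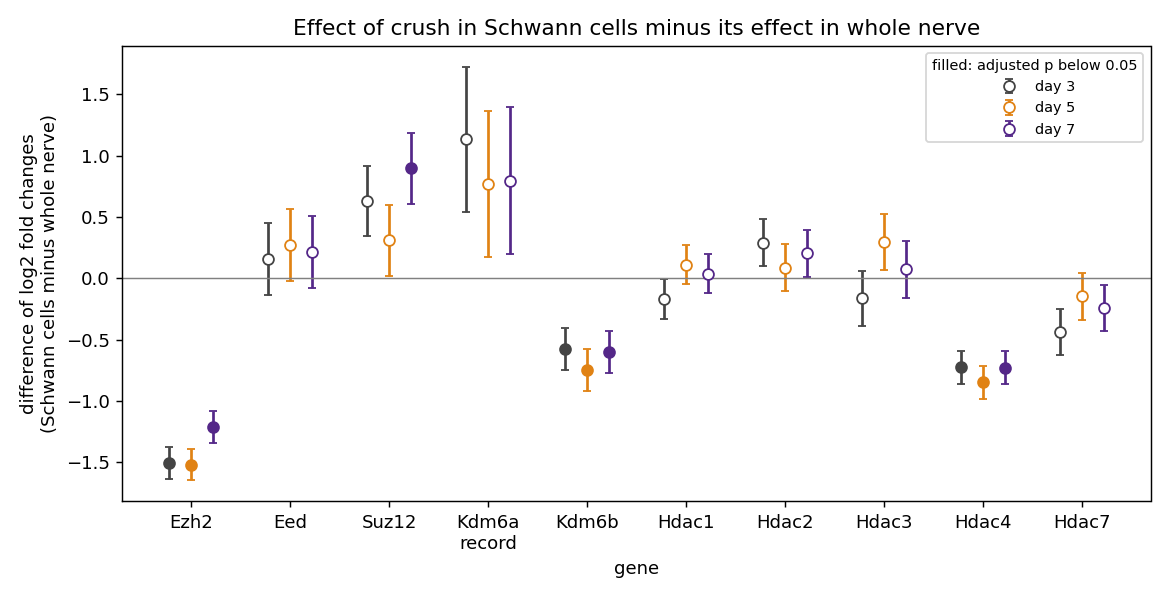
The y axis is the effect of crush in Schwann cells minus that in whole nerve, as a difference of log2 fold changes, for each gene on the x axis at days 3, 5 and 7. Error bars are standard errors and filled points have an adjusted p below 0.05, as Ezh2, Kdm6b and Hdac4 do on all 3 days, Ezh2 at -1.51, -1.52 and -1.21.

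Genes known as targets of Polycomb silencing in Schwann cells, or as regulators of the repair state, were measured beside the members. Of 10, 7 passed the filter in Schwann cells, and since genes near 0 in uncrushed cells pass it only through the injured libraries, their values are given without a count. Runx2, a transcription factor, had 2.10 and 2.16 FPKM uncrushed and 147 and 149 at day 3 (log2 fold change 6.10). Fgf5, a growth factor, had 0.79 and 0.78 uncrushed and 68.0 and 66.2 at day 3 (6.46), and Gdnf, a trophic factor of neurons, 3.26 and 1.60 uncrushed and 65.2 and 78.2 at day 3 (4.89). Shh had 0.14 and 0.05 uncrushed and 3.87 and 4.27 at day 3, and Cdkn2b, an inhibitor of the cell cycle, 0.78 and 1.26 uncrushed and 1.70 and 3.01 at day 3. Hmga2 was listed at 0 in both uncrushed libraries and at 2.79 and 3.86 FPKM at day 3. Jun, the central transcription factor of the repair cell, was lower, with 383 and 408 FPKM uncrushed and 232 and 218 at day 3, while in whole nerve it had 10.3 and 9.39 uncrushed and 49.0 and 52.0 at day 3. Fos, given above as a gene that responds to handling, was also highest in uncrushed Schwann cells. The part of dissociation in the Jun values was not tested. Igfbp2, Olig1 and Cdkn2a were below the filter in Schwann cells, and Cdkn2a was listed at 0 in all 8 of these libraries.

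The genes nearest to each member in pattern were found by the root mean square difference of log2 CPM, centred on each gene, over the 16 libraries and 16829 genes. For Ezh2 these were Cd44 (0.22) and Ttc21b (0.23), beside a standard deviation of Ezh2 of 0.75. For Kdm6b they were RGD1310951 (0.17) and Adgrg6 (0.19), and for Hdac4 Cux1 (0.15) and Cnn3 (0.21), with standard deviations of 0.78 and 0.64. The Kdm6a record was nearest to Kdm5d (0.26), which the RefSeq table places on chromosome Y, and then to Pdzk1 (0.29). Suz12 was nearest to Naa15 (0.11) and Magt1 (0.13), and Eed to LOC100912115 (0.12) and Gtf2e1 (0.14). The class I genes and Hdac7, whose standard deviations were 0.17 to 0.23, had neighbours at 0.083 to 0.13, namely Cct2 and Eya3 for Hdac1, Rdx and Ankrd13c for Hdac2, Rnf149 and Pitpnb for Hdac3, and Eif2ak1 and Rbms2 for Hdac7.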

How the data were processed

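RNA was amplified and made into libraries with the Ovation system V2, which carries no molecular identifiers, so errors cover counting and replicate spread only. Reads were processed by the authors with STAR and RSEM on Rnor_6.0, per the labels. The deposited expected counts were used without the authors' normalization and were rounded to whole numbers here, and the deposited FPKM of RSEM give levels. A count matrix and a table of modules were not used. edgeR 4.0.16 (R 4.3.3) was run on the counts by quasi-likelihood, with TMM, filterByExpr and Benjamini-Hochberg adjustment over all genes (14961 in Schwann cells, 15831 in whole nerve, 16829 in the fit of 16 libraries), at 0.05. Schwann cell and whole nerve comparisons used a fit of 8 libraries each, and comparisons across tissues a fit of all 16. A standard error is |log2 fold change| over the root of the F statistic. Alternatives were DESeq2 1.42.0, upper quartile scaling, no filter, at least 10 counts in every library, other sets of libraries, limma 3.58.1 on log2(FPKM + 1) and log2(FPKM + 0.1), a replicate block and leaving out each library. Values of named genes outside the members were not compared across these alternatives. Tests were checked on simulated data. The members, the lists of genes and the naming rule (all members, every gene of the lists of PRC2 partners, other deacetylases and Polycomb-linked genes, the extremes of other lists at day 3, and the 2 nearest genes of each member) were chosen with earlier results of these data known. Fos, Hdac1l, Kdm5d and Eif2s3y were named after their values were seen. Promoter windows and gene records are of RefSeq, GRCr8. Not every gene that the rule selects is reported here.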

Additional observations from a re-analysis of the deposited data

Results flagged for a closer look

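The effect of crush differed between Schwann cells and whole nerve, by the interaction term of edgeR, for 10 of 30 pairs of member and day, beside 26.0%, 27.5% and 26.0% of all genes at days 3, 5 and 7. As Schwann cells minus whole nerve on the log2 scale, Ezh2 had -1.51, -1.52 and -1.21 at days 3, 5 and 7. Kdm6b had -0.58, -0.75 and -0.60, and Hdac4 -0.73, -0.85 and -0.73. With 1 library left out, Kdm6b had -0.70 to -0.45 at day 3 and -0.71 to -0.49 at day 7. The days share the uncrushed libraries, so calls of the same gene on several days are not independent. Suz12 had 0.90 at day 7, which was 0.50 to 1.45 with 1 library left out and passed in 2 of those 8 fits. Groups of 2 libraries are too small to look for single outlying libraries.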

How the results depend on the processing

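The number of calls stayed within 1.5 times the reported number, except with limma on FPKM in whole nerve after crush. It also moved further without the single libraries named in brackets below. The other numbers are given for their range. In whole nerve after crush versus uncrushed, 8 of 30 pairs of member and day were called, and 18 with limma on log2(FPKM + 1) or log2(FPKM + 0.1), tests that called 57.6% to 62.4% of all genes and in which the median of all genes moved by 0.377 to 0.406. Leaving out a library gave 5 to 9 calls there (5 without uncrushed replicate 1), 11 to 18 in Schwann cells (16 reported), 2 to 3 between days in Schwann cells (4; 2 without replicate 1 of day 3), 5 to 10 between days in whole nerve (8; 5 without replicate 2 of day 3 or of day 5), 13 to 21 between tissues (16) and 7 to 12 for the difference of the effect (10). The replicate block gave 13, 8, 3, 9, 16 and 10 calls for these results, in the order Schwann cells after crush, whole nerve after crush, days in Schwann cells, days in whole nerve, tissues and difference of the effect. Deviations of same-numbered libraries correlated at -0.055 to 0.076 over 28 pairs of groups. Pairing by replicate number was thus not seen over all genes together, and a pairing that touches fewer genes was not tested. Without a filter on low counts 22 pairs were called between tissues and 14 for the difference of the effect. Upper quartile scaling moved the median of all genes between tissues by 0.137 at day 5 and 0.103 at day 7.

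Of 190 values of a member in a comparison, 62 were called, and 136 of 2490 alternative values had the opposite sign, 2 of them for a called value and 7 of them called in the alternative. Among members not called, Eed, Hdac2 and Hdac3 in whole nerve at day 3 (-0.03, -0.09 and -0.09) passed with limma on FPKM, with values up to 0.41, 0.32 and 0.32, and the Kdm6a record in whole nerve at day 7 versus day 3 (0.03) had -1.37 without replicate 2 of day 7. The 2 called values were Suz12 in whole nerve at day 7 versus uncrushed, 0.10 and 0.11 with limma on FPKM plus 1 and plus 0.1. Others, in the same order of pseudocount, were Hdac4 in Schwann cells at day 7 versus uncrushed (0.095 and 0.10), Ezh2 in Schwann cells at day 5 versus day 3 (0.072 and 0.073) and Kdm6b in whole nerve at day 3 versus uncrushed (0.14 and 0.17). Ezh2 in whole nerve at day 5 versus day 3 turned to 0.0086 in the fit of 16 libraries and 0.0027 in that of 4, and ranged from -0.054 to 0.014 when a library was left out. Left-out libraries also gave -0.057 to 0.040 for Ezh2 in Schwann cells at day 5 versus day 3, and -0.055 to 0.23 for Kdm6b in whole nerve at day 7 versus day 5. Eed in whole nerve at day 5 versus uncrushed (0.0034) was -0.0067 with at least 10 counts in every library, and -0.18 to 0.24 with a library left out. The cause was not tested. The lowest count of a member in a library was 125, and 2 libraries per group limit what could be detected.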
